A study of Mus musculus with 6 samples.

Results

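Imprinted gene clusters are groups of neighbouring genes, many of which are transcribed mainly from the copy inherited from the mother or mainly from the copy inherited from the father. A list of 39 genes in 20 imprinted domains was looked up by symbol in a count table of 15159 mouse genes. Of these, 36 had a row and 3 (Phlda2, Magel2 and Rasgrf1) had none. Snrpn and Snurf, which overlap on the same strand, held identical counts and are counted once under the name Snrpn, which leaves 35 members in 19 domains. All 35 had enough counts to be tested.

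The RNA came from cardiac cells of C57BL/6 x 129S4/SvJae mouse embryos at embryonic day 18.5. The H3K9M cells carried an inducible transgene for histone H3.3 with methionine in place of lysine 9, and the H3WT cells carried an inducible transgene for wild-type H3.3. Both groups received 2 µg/ml doxycycline, which switches the transgene on, and were kept for 4 days on PDMS, a silicone rubber, with a stiffness of 13 kPa. This is the protocol given for every sample, but the titles differ. Those of replicate 2 of both groups leave out the word Soft that the other titles carry, so the substrate of these 2 libraries is less certain. Those of replicate 1 of both groups leave out D4, which the other titles carry. If D4 stands for day 4, the culture time of these libraries is less certain too. Each group had 3 libraries of polyadenylated RNA. The labels name neither the promoter that drives the transgene nor the share of cells that express it, and they leave unstated whether each library stands for its own animal or culture. The p-values therefore measure the spread between these libraries, which may be technical. Gene counts do not separate the transgene from the endogenous H3.3 genes, so they do not check the labels.

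At most imprinted domains a differentially methylated stretch of DNA, the imprinting control region, carries DNA methylation on a single parental copy. That copy also carries methylation at lysine 9 of histone H3, and the KRAB zinc finger protein ZFP57 with its partner TRIM28 protects the mark in the early embryo. Imprinted genes are known for roles in fetal growth and in the placenta. Gene counts give the sum of both parental copies, so imprinting itself was not measured here, and neither was methylation at lysine 9.

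The library totals lay between 55550379 and 67994773 counts. Levels are given as CPM (counts scaled to a common library size, TMM-normalised) and changes as log2 fold changes of H3K9M over H3WT with their standard errors. The adjusted p comes from the quasi-likelihood test of edgeR with Benjamini-Hochberg adjustment over all 14758 tested genes, and a gene is called at an adjusted p under 0.05. All 8 cardiomyocyte markers checked had counts, with a summed level of 28210 to 32210 CPM in H3K9M and 25880 to 32190 CPM in H3WT, so the labelled cell type was present. Markers of fibroblasts had counts as well, and markers of red blood cells and of liver had no row. In such mixed bulk RNA, fewer cells of a type and less RNA per cell cannot be told apart.

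Among the 35 members, Peg3 was lower and Snrpn and Ndn were higher in H3K9M, and no other member was called. That is 8.57% of the members, beside 1.99% of all tested genes (0.935% higher and 1.05% lower). Peg3 encodes a zinc finger protein, SNRPN is a core protein of the splicing machinery and NDN (necdin) is a MAGE-family growth suppressor. All of them lie on chromosome 7 and are known to be transcribed from the paternal copy. Neither trait is particular to them. Among members not called, H19, Igf2, Cdkn1c, Kcnq1ot1, Slc22a18, Usp29, Zim1, Mkrn3 and Inpp5f also lie on chromosome 7. Igf2, Kcnq1ot1, Usp29, Mkrn3, Dlk1, Peg10, Nnat, Impact, Airn and Mcts2 are also paternally expressed. The fold changes of the members did not lean one way: 17 were positive and 18 negative, with a median of -0.01 on the log2 scale, against -0.0024 for all tested genes. Their median size was 0.19 on the log2 scale, against 0.15 for all tested genes, and 22 of the 35 lay within 0.25 of 0.

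**Figure D1:**
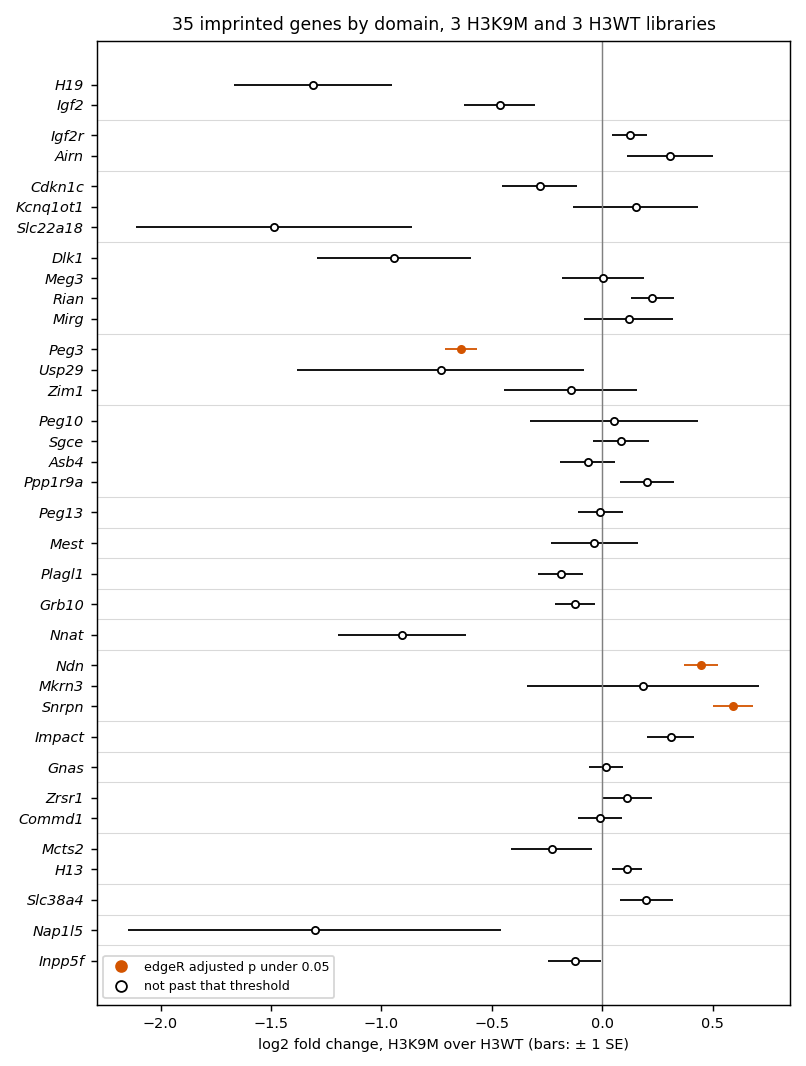
Log2 fold change of H3K9M over H3WT (horizontal axis) with 1 standard error on either side for each of the 35 members, grouped by domain from top to bottom. Filled points mark an adjusted p under 0.05: Peg3 lies left of 0 and Snrpn and Ndn lie right of 0, while the wide bars belong to members with few counts such as Slc22a18, Usp29 and Nap1l5.

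The plot of fold changes by domain shows where the called members sit. Peg3 lies in the domain named after it, and Snrpn and Ndn share the Prader-Willi domain. The promoter windows of the 3 called members are shown because these are the starts from which the changed transcripts can be read. They run from 250 bases before to 50 bases after the start in RefSeq (build GRCm38.p6), with every CpG, the site of DNA methylation, in capitals.
Peg3, chr7:6730370-6730669, minus strand: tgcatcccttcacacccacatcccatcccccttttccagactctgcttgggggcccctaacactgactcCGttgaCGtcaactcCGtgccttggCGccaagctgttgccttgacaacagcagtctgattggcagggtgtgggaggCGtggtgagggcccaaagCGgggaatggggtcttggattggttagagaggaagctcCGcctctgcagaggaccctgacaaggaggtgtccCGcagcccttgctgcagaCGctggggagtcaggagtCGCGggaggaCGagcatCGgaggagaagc
Snrpn and Snurf, chr7:60005150-60005449, minus strand: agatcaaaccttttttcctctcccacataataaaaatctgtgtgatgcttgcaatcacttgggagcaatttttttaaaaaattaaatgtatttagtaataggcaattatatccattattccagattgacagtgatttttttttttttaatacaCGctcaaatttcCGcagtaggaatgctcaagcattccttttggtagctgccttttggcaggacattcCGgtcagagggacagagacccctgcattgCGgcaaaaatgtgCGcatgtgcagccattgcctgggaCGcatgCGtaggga
Ndn, chr7:62348027-62348326, plus strand: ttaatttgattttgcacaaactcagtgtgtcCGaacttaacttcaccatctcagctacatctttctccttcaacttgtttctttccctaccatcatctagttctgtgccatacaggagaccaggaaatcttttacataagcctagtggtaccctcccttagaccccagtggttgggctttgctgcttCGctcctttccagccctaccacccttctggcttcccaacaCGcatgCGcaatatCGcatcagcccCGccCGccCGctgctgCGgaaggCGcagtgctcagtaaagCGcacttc
The Peg3 window holds 13 CpG, the Snrpn window 7 and the Ndn window 11. The Peg3 window shares 263 bases with that of Usp29, which is read in the opposite direction from nearly the same point. Snrpn has 4 distinct starts in RefSeq, and the one shown is the start it shares with Snurf. The other 3 windows of Snrpn hold 2 to 4 CpG. Over all 51 windows of 33 listed genes the median was 13 CpG, against 7 over 32851 promoter windows of the mouse genome. The letters TGCCGC, the motif of ZFP57, occurred on either strand in 25.5% of the listed genes' windows and in 11.6% of all windows. Windows were counted per listed start, so the window that Snrpn and Snurf share counts under both names. Mest likewise adds 2 nearly identical windows that hold these letters. TGCCGC contains a CpG itself, and the shares were not compared at equal CpG content. The letters ATGGCG, the core of the motif of YY1, occurred in 11.8% and in 8.9%. Of the windows printed, only that of Snrpn holds TGCCGC and none holds ATGGCG. These counts describe the letters and not binding.

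Peg3 (chromosome 7, 6703892 to 6730431, minus strand, GRCm38) was at 75.6, 72.5 and 68.5 CPM in the 3 H3K9M libraries, against 114.6, 116.6 and 106.6 CPM in the 3 H3WT libraries. Each H3K9M library lay below each H3WT library, and the libraries of a group lay close together. The means were 72.2 ± 3.55 CPM in H3K9M and 112.6 ± 5.32 CPM in H3WT (SD, n = 3 each), which is a fitted ratio of 0.641. On the log2 scale the change was -0.64 ± 0.07, with an edgeR adjusted p of 0.00607. The call held when any single library was left out, with adjusted p-values from 0.00734 to 0.0451.

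The other members of the Peg3 domain did not pass the test. Usp29 encodes a ubiquitin-specific protease and is also transcribed from the paternal copy. It was at 0.632, 0.313 and 0.157 CPM in H3K9M and at 0.321, 0.703 and 0.808 CPM in H3WT, and the groups overlapped. Its log2 fold change of -0.73 ± 0.65 had an edgeR adjusted p of 0.630, so at this depth its direction was not resolved. Zim1, a zinc finger gene transcribed from the maternal copy, was at 3.52, 2.58 and 2.04 CPM in H3K9M and at 2.25, 2.94 and 3.81 CPM in H3WT. These values overlap, with a log2 fold change of -0.14 ± 0.30 and an edgeR adjusted p of 0.863. Per kilobase of exon, Peg3 was at 5.42 CPM in H3K9M and 8.45 CPM in H3WT, while Usp29 was at 0.0203 CPM in H3K9M and 0.0338 CPM in H3WT. Of the pair that starts at nearly the same point, Peg3 thus had far more RNA per length in both groups.

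Snrpn (chromosome 7, 59982495 to 60140219, minus strand) was at 40.4, 36.8 and 43.4 CPM in H3K9M, against 26.1, 26.6 and 27.2 CPM in H3WT. All H3K9M libraries lay above all H3WT libraries, which differed from each other by about 1 CPM. The means were 40.2 ± 3.32 CPM in H3K9M and 26.6 ± 0.569 CPM in H3WT (SD, n = 3 each), a fitted ratio of 1.51. On the log2 scale Snrpn was higher by 0.59 ± 0.09, and the edgeR adjusted p was 0.0210. It missed the threshold without H3K9M replicate 1 (0.0647), H3K9M replicate 3 (0.0773) or H3WT replicate 2 (0.109), at nearly the same fold change. The first coding unit of this transcript, Snurf, lies wholly within Snrpn, so the counts cannot say which of the 2 products is meant. In GENCODE M21, 27.3% of the exonic bases of Snrpn are also shared with a further gene model on the same strand. The counts of Snrpn are uncertain to that extent.

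Ndn (chromosome 7, 62346569 to 62350262, plus strand) was at 83.2, 82.5 and 75.2 CPM in H3K9M, against 62.2, 58.4 and 56.2 CPM in H3WT. The groups did not overlap. Their means were 80.3 ± 4.39 CPM in H3K9M and 58.9 ± 3.01 CPM in H3WT (SD, n = 3 each), a fitted ratio of 1.36. The log2 fold change of 0.45 ± 0.08 had an edgeR adjusted p of 0.0309. The call held without H3WT replicate 1 (0.0391), and it missed the threshold without any other single library, with adjusted p-values from 0.0501 to 0.136. The log2 fold change stayed between 0.41 and 0.49 when single libraries were left out.

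Mkrn3, a ring finger gene of the same domain that is also transcribed from the paternal copy, was at 0.615, 2.52 and 1.01 CPM in H3K9M and at 1.19, 1.48 and 0.984 CPM in H3WT. H3K9M replicate 2 was the highest library and H3K9M replicate 1 the lowest. Its log2 fold change was 0.18 ± 0.52 with an edgeR adjusted p of 0.902, and the sign turned without H3K9M replicate 2 (-0.59). The noncoding host transcript Snhg14, which runs on from Snrpn and was looked up after the values of Snrpn were seen, had a log2 fold change of 0.09 ± 0.33 and an edgeR adjusted p of 0.927.

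**Figure D2:**
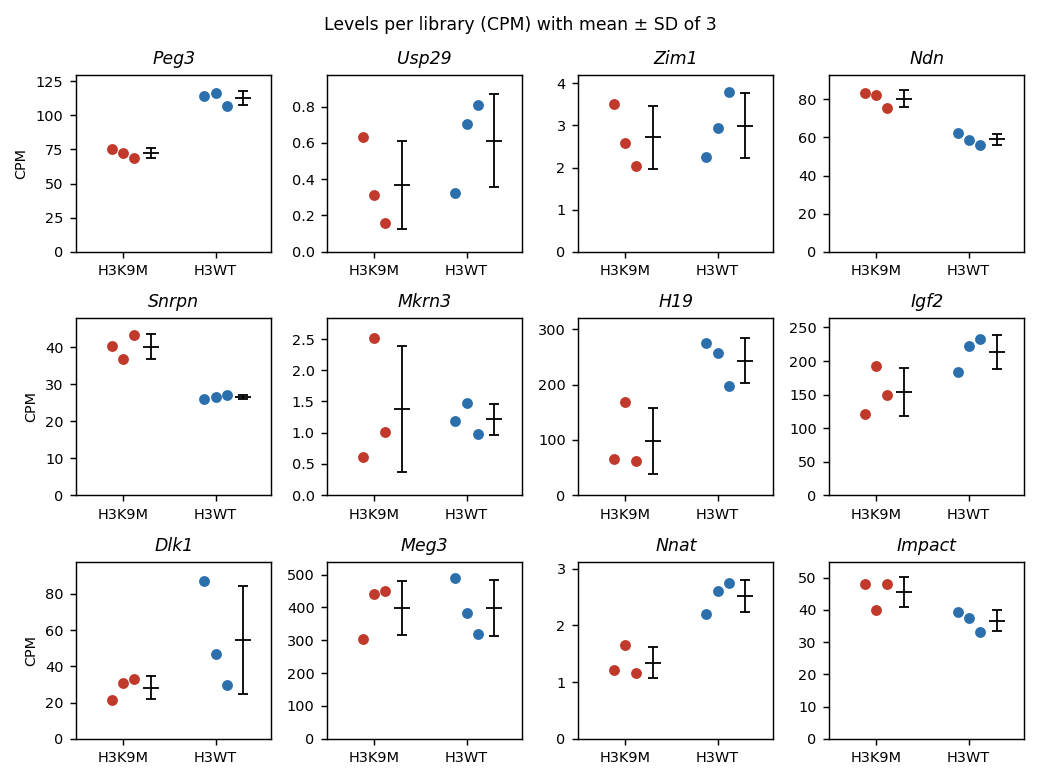
Level in CPM (vertical axis, starting at 0, a scale of its own in each panel) of 12 members in the 3 H3K9M libraries (red) and the 3 H3WT libraries (blue), with mean and SD beside the points. The groups are apart for Peg3, Ndn, Snrpn, H19, Nnat and Impact, and they overlap for Usp29, Zim1, Mkrn3, Igf2, Dlk1 and Meg3.

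The panels of levels per library also show members whose groups were apart or nearly so without a call. Besides the called members, 7 members had an unadjusted p under 0.05: H19, Igf2, Slc22a18, Dlk1, Rian, Nnat and Impact. In all, 10 members (28.6%) reached that level, beside 16.4% of all tested genes. The groups did not overlap in 11 members (31.4%), 7 of them higher and 4 lower in H3K9M, beside 22.6% of all tested genes (11.3% in each direction).

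H19 and Igf2 are the classic pair of oppositely imprinted neighbours: H19 is a maternally expressed long noncoding RNA and Igf2 a paternally expressed fetal growth factor. H19 was at 64.6, 167.9 and 62.1 CPM in H3K9M, against 275.3, 257.5 and 197.0 CPM in H3WT. Every H3K9M library was below every H3WT library, but H3K9M replicate 2 lay far above the other two. With that spread the log2 fold change of -1.31 ± 0.36 had an edgeR adjusted p of 0.111 and was not called. When H3K9M replicate 2 was left out, the fold change was -1.95 on the log2 scale and the edgeR adjusted p 0.00750.

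Igf2 was at 121.6, 192.1 and 149.3 CPM in H3K9M, against 184.2, 221.7 and 233.0 CPM in H3WT. H3K9M replicate 2 lay above H3WT replicate 1, so the groups overlapped. The log2 fold change was -0.46 ± 0.16 with an edgeR adjusted p of 0.199. In GENCODE M21, 62.8% of the exonic bases of Igf2 are shared with another gene model on the same strand, and its counts are uncertain to that extent. The log2 ratio of H19 to Igf2 within a library was -0.91, -0.19 and -1.26 in H3K9M and 0.58, 0.22 and -0.24 in H3WT. The groups overlapped (difference -0.97, exact permutation p = 0.2, two-sided).

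H19 also hosts a microRNA, shown here with the seed (bases 2 to 8) of each mature form in capitals (RefSeq, GRCm38.p6).
mmu-miR-675-5p: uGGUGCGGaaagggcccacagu
mmu-miR-675-3p: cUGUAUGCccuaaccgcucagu
The 2 forms have different seeds. The row of the hairpin gene, Mir675, was at 5.36, 17.4 and 6.61 CPM in H3K9M, against 30.2, 26.8 and 20.5 CPM in H3WT. It followed the order of H19 in showing H3K9M replicate 2 as the highest H3K9M library, with a log2 fold change of -1.40 ± 0.40 and an edgeR adjusted p of 0.124. Every stretch of 50 bases in this hairpin is also part of H19, so its reads cannot be told apart from those of the host transcript. Without H3K9M replicate 2 it was called (edgeR adjusted p 0.0159), as H19 was. Mature microRNA is not polyadenylated and was not measured.

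The Dlk1-Meg3 domain on chromosome 12 holds Dlk1, a paternally expressed membrane protein of the Notch ligand family, and a run of maternally expressed noncoding RNAs. Dlk1 was at 21.2, 30.8 and 32.9 CPM in H3K9M, against 87.3, 46.6 and 29.5 CPM in H3WT. The groups overlapped because H3WT replicate 3 was as low as the H3K9M libraries, while H3WT replicate 1 was far above all others. The log2 fold change was -0.94 ± 0.35 and the edgeR adjusted p 0.228.

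The noncoding RNAs of this domain had fold changes nearer to 0. Meg3 was at 304.8, 440.8 and 449.9 CPM in H3K9M and at 490.2, 382.8 and 320.2 CPM in H3WT, with means of 398.5 and 397.7 CPM. Rian was at 214.9, 233.7 and 243.6 CPM in H3K9M, against 212.2, 207.2 and 172.9 CPM in H3WT. Its groups were apart by a small margin, with a log2 fold change of 0.23 ± 0.10 and an edgeR adjusted p of 0.299. Mirg was at 8.68, 15.7 and 11.6 CPM in H3K9M and at 11.6, 11.1 and 10.4 CPM in H3WT, and its groups overlapped.

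Within H3WT, Dlk1 was highest in replicate 1 and lowest in replicate 3, and 6 of the 8 fibroblast markers had that order too (all but Col1a1 and Postn). Tcf21, a transcription factor of cardiac fibroblasts, was at 41.2, 61.3 and 57.9 CPM in H3K9M and at 153.6, 93.7 and 49.1 CPM in H3WT. The collagen-binding proteoglycan gene Dcn was at 48.9, 95.7 and 116.0 CPM in H3K9M and at 227.9, 114.4 and 72.4 CPM in H3WT. Over the 8 fibroblast markers, the summed level was 11540 to 18320 CPM in H3K9M and 12840 to 19330 CPM in H3WT. None of the 8 was called, and 6 had a negative fold change. All 5 macrophage markers had the same order within H3WT, with a summed level of 63.5, 76.5 and 74.3 CPM in H3K9M and 148.2, 86.8 and 51.4 CPM in H3WT. None of these 5 was called, and all had a negative fold change. The part of cell composition in the values of Dlk1 was not tested.

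Peg10, a paternally expressed gene derived from a retrotransposon, showed the same order within H3WT. It was at 192.1, 238.8 and 229.2 CPM in H3K9M and at 353.9, 189.6 and 93.2 CPM in H3WT. The H3WT libraries thus lay on both sides of the H3K9M libraries, and the log2 fold change was 0.05 ± 0.38 with an edgeR adjusted p of 0.965. In the same domain Sgce (epsilon-sarcoglycan), Asb4 and Ppp1r9a had log2 fold changes between -0.07 and 0.20, and none was called. The order of Dlk1 and Peg10 within H3WT was not particular to them. Among the members, H19, Ndn, Meg3, Rian, Mirg, Sgce, Cdkn1c, Kcnq1ot1, Plagl1 and Impact had it too, over a narrower range. How many of all tested genes have this order was not counted.

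**Figure D3:**
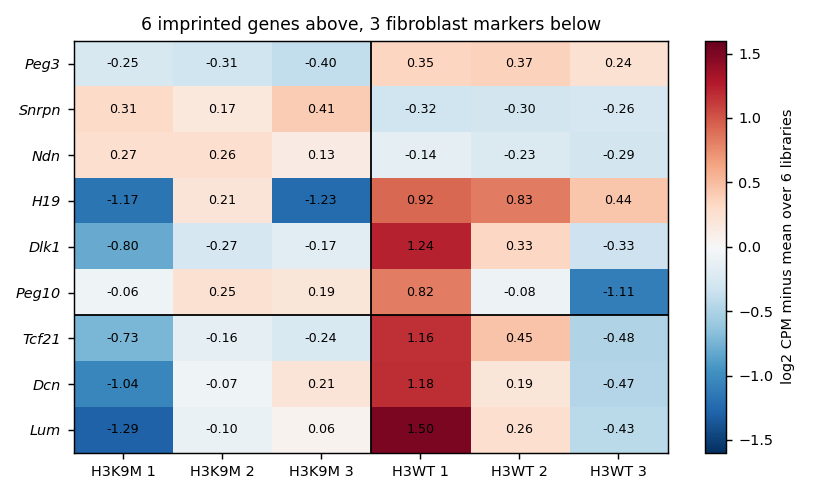
Log2 CPM of 6 members and 3 fibroblast markers (rows) in each library (columns, the 3 H3K9M libraries left of the 3 H3WT libraries), less the mean over the 6 libraries, on a colour scale in log2 units. Peg3, Snrpn and Ndn vary little within a group. Dlk1 and Peg10 span a wide range within H3WT, highest in replicate 1 and lowest in replicate 3, as do Tcf21, Dcn and Lum. H19 and Ndn have the same order within H3WT over a narrower range.

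The map of levels relative to the mean sets these patterns beside each other. In H3WT replicate 1, Dlk1 stood 1.24 and Tcf21 stood 1.16 above the mean of all libraries on the log2 scale, while Peg3 was at 0.35 and 0.37 above it in H3WT replicates 1 and 2. The 3 called members stayed within 0.41 of their mean in every library. A call favours little spread within a group, so this evenness follows in part from the choice of genes. The summed level of endothelial markers was 92.9 to 140.3 CPM in H3K9M and 157.4 to 210.1 CPM in H3WT, with all 6 markers negative and none called. Its part in the values of the members was not tested.

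In the Kcnq1 domain on chromosome 7, the members are Cdkn1c, a maternally expressed inhibitor of cyclin-dependent kinases that limits growth, the paternally expressed noncoding RNA Kcnq1ot1 that silences the domain in cis, and the maternally expressed transporter gene Slc22a18. Cdkn1c was at 11.99, 17.1 and 14.4 CPM in H3K9M and at 21.1, 17.1 and 14.9 CPM in H3WT. Its groups overlapped, with a log2 fold change of -0.28 ± 0.17 and an edgeR adjusted p of 0.463. Kcnq1ot1 was at 15.2, 8.11 and 7.21 CPM in H3K9M and at 10.6, 9.57 and 7.32 CPM in H3WT, where H3K9M replicate 1 alone lay above the H3WT libraries. Its log2 fold change was 0.15 ± 0.28, and it was -0.26 without that library.

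Slc22a18 was scarce, at 0.0683, 0.214 and 0.262 CPM in H3K9M against 0.535, 0.577 and 0.426 CPM in H3WT. All H3K9M libraries were lower, the lowest with 4 counts. The log2 fold change of -1.49 ± 0.63 had an edgeR adjusted p of 0.284.

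Nnat (neuronatin, a paternally expressed membrane protein) was at 1.21, 1.66 and 1.15 CPM in H3K9M, against 2.19, 2.61 and 2.75 CPM in H3WT. Each H3K9M library was below each H3WT library, and the log2 fold change of -0.91 ± 0.29 had an edgeR adjusted p of 0.166. Impact, a paternally expressed regulator of translation, was at 48.1, 40.0 and 48.0 CPM in H3K9M, against 39.4, 37.3 and 33.1 CPM in H3WT. Here every H3K9M library was higher, with a log2 fold change of 0.31 ± 0.11 and an edgeR adjusted p of 0.196.

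The most abundant members differed little between the groups. Gnas, which encodes the stimulatory G protein alpha subunit, was at 1258, 1267 and 1257 CPM in H3K9M and at 1224, 1298 and 1215 CPM in H3WT. Grb10, an adaptor that dampens insulin and growth factor signalling, was at 844.2, 918.6 and 905.6 CPM in H3K9M and at 875.3, 1014 and 1018 CPM in H3WT. Igf2r, the maternally expressed receptor that clears IGF2, was at 768.4, 795.3 and 795.6 CPM in H3K9M, against 684.0, 716.8 and 764.1 CPM in H3WT. Only Igf2r had groups apart, by a narrow margin, and its log2 fold change of 0.12 ± 0.08 had an edgeR adjusted p of 0.485. Airn, the paternally expressed antisense RNA of Igf2r, had a log2 fold change of 0.31 ± 0.20 and an edgeR adjusted p of 0.492.

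Per kilobase of exon, the highest of all members was Gnas at 112.7 CPM in H3K9M and 111.3 CPM in H3WT. Grb10 followed at 97.9 CPM in H3K9M and 106.6 CPM in H3WT. Igf2r was at 84.5 CPM in H3K9M and 77.5 CPM in H3WT. H19 stood at 39.9 CPM per kilobase in H3K9M, below Igf2r, and at 98.9 CPM per kilobase in H3WT, above Igf2r.

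The remaining members (Peg13, Mest, Plagl1, Zrsr1, Commd1, Mcts2, H13, Slc38a4, Nap1l5 and Inpp5f) were not called. Their log2 fold changes lay between -0.23 and 0.20, except for Nap1l5 at -1.30 ± 0.84, whose lowest library held 1 count. H13 (a signal peptide peptidase) had groups apart, with 170.0, 171.1 and 166.1 CPM in H3K9M against 157.2, 162.3 and 150.4 CPM in H3WT. Mcts2, a paternally expressed retrogene inside an intron of H13, had the opposite sign, at -0.23 ± 0.18 on the log2 scale.

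Imprinted neighbours can share enhancers or exclude each other, so the log2 ratio of 2 members of a domain was compared within each library. Of 12 pairs with counts for both genes, Meg3 over Dlk1 was the one pair whose groups did not overlap. Its log2 ratio was 3.84, 3.84 and 3.77 in H3K9M, against 2.49, 3.04 and 3.44 in H3WT. The difference of 0.83 had an exact permutation p of 0.1 (two-sided), the smallest that 3 against 3 libraries allow, and 0.6 after Benjamini-Hochberg adjustment over the 12 pairs. The log2 ratio of Ndn to Snrpn was 1.04, 1.16 and 0.79 in H3K9M and 1.25, 1.13 and 1.04 in H3WT, with a difference of -0.14 (exact permutation p = 0.4). A shift between the called members of the Prader-Willi domain was thus not detectable with 3 libraries a group.

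**Figure D4:**
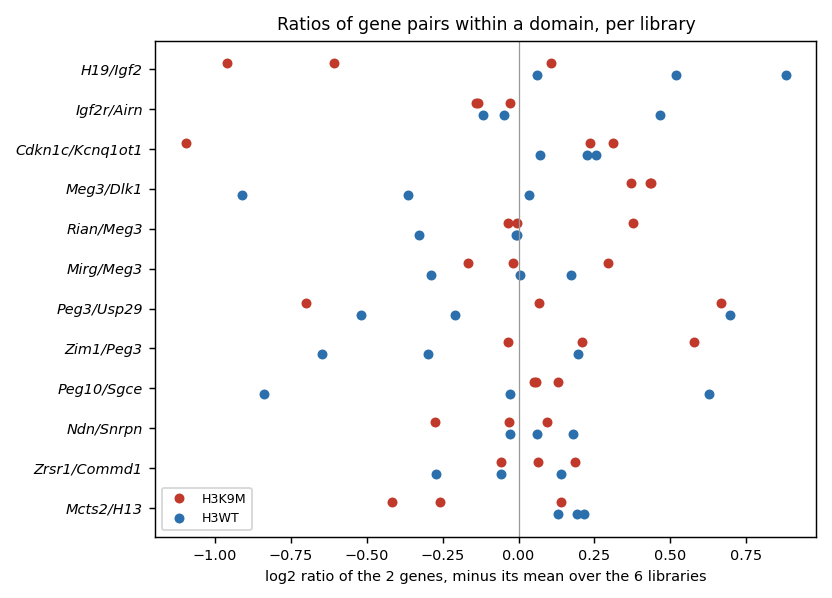
Log2 ratio of the levels of 2 members of the same domain (horizontal axis, in log2 units, 0.1 CPM added to each level, less the mean of that pair over the 6 libraries) for each of 12 pairs, with the 3 H3K9M libraries in red and the 3 H3WT libraries in blue. Points of the 2 groups are apart for Meg3 over Dlk1 and overlap for the other 11 pairs.

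The plot of ratios within domains also shows how little the ratio of Peg3 to Usp29 could resolve. That log2 ratio was 6.69, 7.46 and 8.06 in H3K9M and 8.09, 7.18 and 6.88 in H3WT. Both groups spanned more than 1 log2 unit, and the difference was 0.02 (exact permutation p = 1).

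Genes around the domains were examined from a list of 83 neighbours that are not members, of which 63 had a row. Not all of these lie close by: Krit1 is on chromosome 5, which holds no listed domain. Herc2 and Nipa1 lie megabases away from Snrpn. They remain in the counts below. One was called, Lsp1, which encodes an actin-binding protein and lies 117 kb from the start of H19. Lsp1 was at 109.3, 125.8 and 124.8 CPM in H3K9M, against 79.2, 92.6 and 74.9 CPM in H3WT. The H3K9M libraries were all higher, with a log2 fold change of 0.55 ± 0.10 and an edgeR adjusted p of 0.0366. That call missed the threshold without any 1 of the 6 libraries, with adjusted p-values from 0.0514 to 0.124. Over the 63 neighbours the share called was 1.59%, beside 1.99% of all tested genes, and their median log2 fold change was 0.07.

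The neighbour with the next smallest p was Tnnt3, the fast skeletal troponin T gene, at 79 kb from H19. It was at 7.99, 2.40 and 2.18 CPM in H3K9M, against 0.873, 0.414 and 0.764 CPM in H3WT. The H3K9M libraries were all higher and replicate 1 stood above the rest, with a log2 fold change of 2.61 ± 0.57 and an edgeR adjusted p of 0.0611. In the same stretch, Syt8 (2.07 ± 0.68) and Tnni2 (1.14 ± 0.39) had log2 fold changes of the same sign with edgeR adjusted p-values of 0.178 and 0.196. Mrpl23, which lies between them and H19, was at 25.6 CPM in H3K9M and 26.3 CPM in H3WT. The stretch was singled out after its values were seen.

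**Figure D5:**
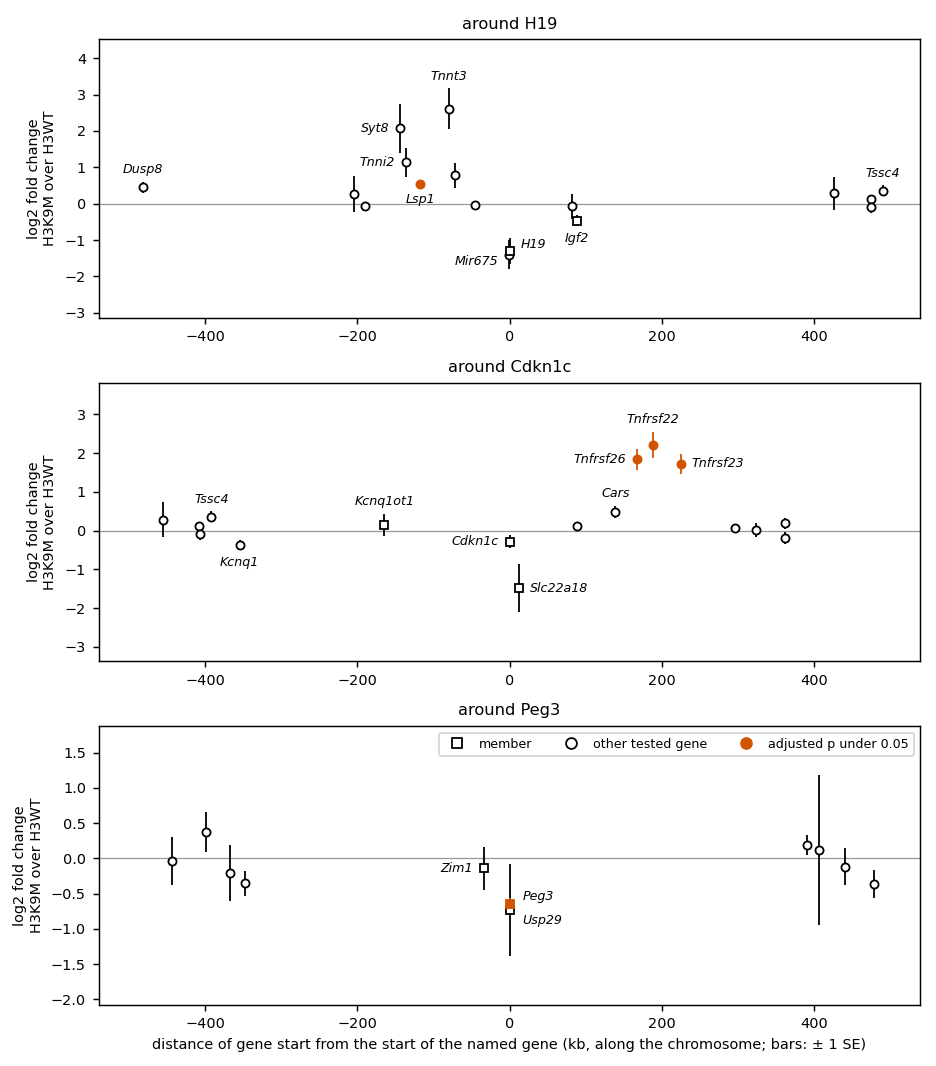
Log2 fold change of H3K9M over H3WT with 1 standard error on either side (vertical axis) against the distance in kb from the start of H19, Cdkn1c and Peg3, for tested genes within 500 kb. Squares are members, circles other genes, filled symbols have an adjusted p under 0.05, and names are given for members and for genes with an unadjusted p under 0.05. H19 and Igf2 lie below 0, Tnnt3, Tnni2, Syt8 and Lsp1 lie above 0 on the left of H19, and the Tnfrsf genes lie beyond Cdkn1c and Slc22a18.

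Within 500 kb of the 20 domains, 169 other genes were tested, and 4 were called (2.37%), all of them higher in H3K9M. That share is near the background of 1.99% over all tested genes (0.935% higher). Besides Lsp1, these were Tnfrsf22, Tnfrsf23 and Tnfrsf26, a cluster of tumour necrosis factor receptor genes that includes decoy receptors and lies 168 to 225 kb beyond Cdkn1c. Tnfrsf26 was at 33.1, 20.2 and 19.9 CPM in H3K9M, against 5.10, 6.23 and 9.09 CPM in H3WT, with a log2 fold change of 1.84 ± 0.26 and an edgeR adjusted p of 0.0169. None of the 3 Tnfrsf calls held without H3WT replicate 2, with adjusted p-values from 0.0979 to 0.116. The Tnfrsf22 call also missed the threshold without H3K9M replicate 2 (0.0503), and the Tnfrsf23 call without H3K9M replicate 1 (0.0506) or H3K9M replicate 3 (0.0510). Tnfrsf22 averaged 24.5 CPM in H3K9M and 5.28 CPM in H3WT, and Tnfrsf23 averaged 64.5 CPM in H3K9M and 19.5 CPM in H3WT. Of the 50-base words of Tnfrsf22, 17.3% are also found in Tnfrsf23, so the split of reads between them is uncertain. The plot of fold changes by distance shows negative fold changes for Slc22a18 and Cdkn1c, on the near side of this cluster, and positive ones for Nap1l4 (0.10 ± 0.07) and Cars (0.48 ± 0.16), which lie between them and the cluster. None of these 4 was called. None of the 10 other genes tested around Peg3 and none of the 3 around Snrpn was called.

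Of 35 genes known to set, keep or read imprints, 32 had a row and 1 was called (3.13%, beside 1.99% of all tested genes). Atf7ip, the partner that stabilises the lysine 9 methyltransferase SETDB1, was at 151.7, 131.5 and 147.0 CPM in H3K9M, against 75.5, 72.8 and 78.5 CPM in H3WT. The groups lay far apart, with a log2 fold change of 0.92 ± 0.08 and an edgeR adjusted p of 0.00222. No other gene of the list passed the test. Over the 32 genes, 27 fold changes were negative and the median was -0.10 on the log2 scale, beside 7449 negative fold changes among all 14758 tested genes. Tet2, an enzyme that oxidises methylated cytosine, had the next smallest p, at 31.2, 37.1 and 41.0 CPM in H3K9M against 55.4, 45.0 and 51.7 CPM in H3WT. Its H3K9M libraries were all lower, with a log2 fold change of -0.48 ± 0.12 and an edgeR adjusted p of 0.0940. DESeq2 called Tet2, with an adjusted p of 0.0126 at nearly the same fold change, and the other settings, limma-voom included, did not (0.0909 to 0.411).

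The authors' deposited table holds their own comparison of 14691 genes and includes all 35 members. In the authors' deposited table Peg3 (log2 fold change -0.59, adjusted p 7.03e-06) and Ndn (0.50, adjusted p 0.00134) pass 0.05. They are 2 of 35 members, beside 259 genes higher and 332 genes lower at that threshold among all 14691. Snrpn does not pass in the authors' deposited table (0.39, adjusted p 0.153), and its sign is the same. The signs of 29 members match the ones found here and 6 differ, which are Kcnq1ot1, Meg3, Mirg, Peg13, Mkrn3 and Inpp5f in the authors' deposited table. The mean counts of the authors' deposited table were a median of 0.252 times the mean of the raw counts, and for Kcnq1ot1 this ratio was 1.80 times that median, so that table does not rest on the raw counts as deposited.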

How the data were processed

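Polyadenylated RNA of 3 H3K9M and 3 H3WT samples was sequenced. Per the submitters' processing notes, the tools were HISAT2, featureCounts and DESeq2 and the build was mm10. Versions and the setting for strand were not given in the sources used here. Raw read counts per gene were deposited. The authors also deposited DESeq2 results: a mean normalised count as a signal, a log2 fold change, a Wald score (not used here), a p-value and an adjusted p-value.

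From the counts, filterByExpr (minimum 10, total 15) kept 14758 of 15159 genes. Groups were compared with TMM scaling and edgeR 4.0.16 (quasi-likelihood F test, R 4.3.3), group as the only term, Benjamini-Hochberg adjusted over all tested genes. A standard error is the size of the log2 fold change over the square root of F. The median standard error was 0.133 and the biological coefficient of variation 18.8%. Pairs within a domain were compared by exact permutation of log2 ratios with 0.1 CPM added.

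The members and gene lists were chosen with earlier results of these data known. Values in every library are given for members with an unadjusted p under 0.05, for their domains and for the 6 most abundant members; of the neighbour and regulator lists, called genes and the 2 with the smallest p are named. Genes outside this rule were named after their values were seen. Alternatives were DESeq2 1.42.0, limma-voom (3.58.1), RLE factors, 2 other filters, the replicate number as a block, another pseudocount, and leaving out libraries. Positions and exonic lengths come from GENCODE M21 (GRCm38, which is mm10), where 14185 tested genes were found, and sequences from RefSeq. Replicate pairs differed with a chi-square of 26.7 to 119 per gene, far beyond counting noise. The steps were tested on simulated data.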

Additional observations from a re-analysis of the deposited data

How the results depend on the processing

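Peg3 was called under every setting but the one that left out replicate 2 of both groups, and all 3 called members were called with DESeq2, limma-voom, RLE factors and both other filters. Beside 293 genes called in all, DESeq2 called 1010 of 14758 genes, with 7 of 63 neighbours and 2 of 32 regulators. The members called stayed at 3 of 35, so with DESeq2 their share stood less far above that of all genes than with edgeR. Tnnt3 (2.62 on the log2 scale) and Tet2 (-0.47) were called by DESeq2 alone. A fit with the replicate number as a block (a replicate block) called 58 genes, 1 member (Peg3) and 0 neighbours (DESeq2 without the block: 7 neighbours called). Under the block, 14 of 63 neighbours, 7 of 35 members and 2000 of 14758 genes had an unadjusted p under 0.05. There Ndn had an adjusted p of 0.0977 and Snrpn 0.0920, and Lsp1 and the 3 Tnfrsf genes were not called either. Whether the replicate numbers pair the samples is not stated. The titles share an M number, of unexplained meaning, between the groups in replicates 1 and 3 but not in replicate 2. The deviations of same-numbered libraries from their group means had correlations of -0.157, 0.0346 and -0.0694. With 3 libraries a group, these correlations cannot show whether samples are paired. Without replicate 2 of both groups, whose titles leave out the word Soft, edgeR called 0 genes, 0 members, 0 neighbours and 0 regulators. An unadjusted p under 0.05 was reached by 1378 of 14786 genes and 8 of 35 members. No other tool was run there. In that fit Peg3 kept its fold change (-0.62).

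Leaving out 1 library at a time gave 60 to 372 called genes, 1 to 3 members, 0 to 1 neighbours and 1 regulator. Pairs whose groups did not overlap numbered 1, against 2 with a pseudocount of 1 and 1 to 5 with a library left out. The log2 ratio of Peg3 to Usp29 turned to -0.40 with a pseudocount of 1.

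Signs turned only for log2 fold changes near 0 or of scarce genes. Meg3 turned to -0.0002 without a filter and -0.0009 with the filter of 1 CPM, and Mkrn3 to -0.0159 with limma-voom and -0.0284 under the block. Without replicate 2 of both groups, Meg3 (-0.10), Mirg (-0.12), Peg10 (-0.0853), Sgce (-0.0025) and Mkrn3 (-0.42) turned. With 1 library left out, the log2 fold changes ranged from -0.26 to 0.35 for Kcnq1ot1, -0.13 to 0.18 for Meg3, -0.13 to 0.30 for Mirg, -0.38 to 0.067 for Zim1, -0.30 to 0.64 for Peg10, -0.0216 to 0.21 for Sgce, -0.18 to 0.0209 for Asb4, -0.0551 to 0.0613 for Peg13, -0.32 to 0.0903 for Mest, -0.59 to 0.54 for Mkrn3, -0.0002 to 0.0487 for Gnas, -0.0547 to 0.0571 for Commd1 and -0.174 to 0.207 for Snhg14. The differences of log2 ratios ranged from -0.615 to 0.0887 for Cdkn1c over Kcnq1ot1, -0.0537 to 0.18 for Mirg over Meg3, -0.307 to 0.376 for Peg3 over Usp29 and -0.22 to 0.513 for Peg10 over Sgce. The cause of these changes was not tested. Slc22a18, Usp29 and Nap1l5 have no value under the filter of 1 CPM, and at 1 to 9 counts in their lowest libraries depth limits them most.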
